A study of Mus musculus with 4 samples.

Results

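The CC chemokine ligands are 10 genes, Ccl2, Ccl3, Ccl4, Ccl5, Ccl6, Ccl7, Ccl8, Ccl9, Ccl12 and Ccl22, taken by their symbols from the 15690 genes counted in the series. All 10 were found in each of the 4 libraries. The series counted transcripts in single myeloid cells sorted by flow cytometry into 384-well plates from brains of tumor-bearing mice, in a study of lung cancer brain metastasis. The 4 groups were bone marrow-derived macrophages (BMDM) with whole brain radiation therapy (WBRT), BMDM without WBRT, microglia with WBRT and microglia without WBRT. All came from Balb/C athymic nude mice (CAnN.Cg-Foxn1nu/Crl), which lack a thymus and most T cells and keep NK cells, B cells and myeloid cells. The irradiated groups are labelled as given 5 fractions of 2 Gy, with the term d3, whose starting point the labels do not give. The irradiated groups are labelled as not stratified by tumor stage and the unirradiated groups as having small tumors, so WBRT and tumor stage cannot be told apart. Each group was 1 plate, and the labels name no animals, so no difference below has a replicate check and no test across samples was made.

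CC chemokines are small secreted proteins named for a pair of neighbouring cysteines. They bind G protein-coupled receptors on leukocytes and guide their movement into tissue. Microglia and macrophages are among their main sources in the inflamed or tumor-bearing brain, and several of the genes respond to NF-kB or interferon signalling. In the mouse, Ccl2, Ccl7, Ccl8 and Ccl12 belong to the monocyte chemoattractant group, of which Ccl2, Ccl7 and Ccl12 act through Ccr2. Ccl3, Ccl4 and Ccl5 are inflammatory chemokines of macrophages and lymphocytes, Ccl6 and Ccl9 are ligands of Ccr1, and Ccl22 is a ligand of Ccr4.

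Of the 10 genes, 9 lie on chromosome 11 in 2 runs of neighbours (GENCODE vM21, build GRCm38). Ccl2, Ccl7, Ccl12 and Ccl8 follow each other on the plus strand, with Ccl2 starting at 82035571 and Ccl8 ending at 82116799. Ccl5, Ccl9, Ccl6 and Ccl3 on the minus strand and Ccl4 on the plus strand lie between 83525778 and 83664683. Ccl22 lies alone on chromosome 8. The RefSeq models of Ccl3 and Ccl4 overlap on opposite strands, and the sources used here do not say whether counting used strand, so reads from that overlap cannot be assigned to either gene with certainty. The 250 bases upstream of the RefSeq start (GRCm38.p6) were at hand for 6 of the 10 genes. Those of 4 are shown 5′ to 3′. Ccl8 and Ccl12 were chosen as close neighbours that differ in the results below. Ccl6 and Ccl9 were chosen as neighbours whose counts varied together among wells of the BMDM libraries, but not of the microglia libraries. Capitals mark matches, on either strand, to TATAAA, to a loose NF-kB pattern (GGG, any 5 bases, CC) or to TGANTCA (the AP-1 pattern).
Ccl8, chr11:82114935-82115184, plus strand: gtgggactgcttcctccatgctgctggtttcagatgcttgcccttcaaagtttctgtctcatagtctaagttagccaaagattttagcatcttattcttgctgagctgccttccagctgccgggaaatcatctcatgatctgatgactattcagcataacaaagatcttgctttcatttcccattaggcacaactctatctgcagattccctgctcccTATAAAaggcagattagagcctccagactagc
Ccl12, chr11:82101595-82101844, plus strand: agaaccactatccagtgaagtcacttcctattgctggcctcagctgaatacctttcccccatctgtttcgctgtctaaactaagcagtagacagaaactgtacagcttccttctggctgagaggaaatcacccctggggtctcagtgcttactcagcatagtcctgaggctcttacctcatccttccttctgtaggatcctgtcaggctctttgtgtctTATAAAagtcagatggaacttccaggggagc
Ccl6, chr11:83593088-83593337, minus strand: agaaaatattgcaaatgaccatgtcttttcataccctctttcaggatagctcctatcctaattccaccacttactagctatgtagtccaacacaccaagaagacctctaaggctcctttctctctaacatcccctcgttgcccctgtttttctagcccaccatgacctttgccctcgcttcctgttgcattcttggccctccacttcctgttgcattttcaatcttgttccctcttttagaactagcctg
Ccl9, chr11:83578637-83578886, minus strand: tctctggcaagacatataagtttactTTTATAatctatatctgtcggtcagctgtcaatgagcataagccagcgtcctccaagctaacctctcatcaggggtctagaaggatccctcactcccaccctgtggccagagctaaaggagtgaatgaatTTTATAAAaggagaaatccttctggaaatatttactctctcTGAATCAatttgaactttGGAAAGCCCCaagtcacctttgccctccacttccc
TATAAA begins 32 bases before the start of Ccl8 and 31 bases before that of Ccl12, and the only other match among the 6 genes is in Ccl9, where 2 matches on opposite strands overlap and another lies further upstream. Of 27025 mouse promoter windows, 12.97% hold TATAAA. The loose NF-kB pattern matched in Ccl9 and, at 2 places, in Ccl22, and 45.4% of all windows hold it. The AP-1 pattern matched in Ccl9, and 6.87% of all windows hold it. An interferon response pattern (GAAA, any 2 bases, GAAA) matched in none of the 6, and 3.04% of all windows hold it. A match describes letters and is not a measured binding site.

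Kept wells had 1000 or more counts outside spike-in and mitochondrial transcripts, and a spike-in share under 50%. There were 262 such wells for BMDM with WBRT, 234 for BMDM without WBRT, 151 for microglia with WBRT and 157 for microglia without WBRT. The pooled libraries held 2513025, 1265842, 649107 and 874710 counts in that order, and levels are given as CPM, the usual count scaled to these totals. A count of 3, used as the floor, was worth 1.19 to 4.62 CPM. Microglia with WBRT stood apart, with a median of 2546 counts per well, against 4388 to 8894 in the other libraries, a median spike-in share of 30.6%, against 6.92% to 7.86%, and Malat1, a nuclear RNA, under 1000 CPM in 70.2% of wells, against 8.12% to 44.6%. The marker lists of microglia and of blood-derived macrophages followed the labels, while other lists did not all do so. The summed level of 10 microglia markers was 3434 CPM in BMDM with WBRT and 3568 CPM in BMDM without WBRT, against 10855 CPM in microglia with WBRT and 9700 CPM in microglia without WBRT. The summed level of 6 markers of blood-derived macrophages was 2950 and 1686 CPM in the BMDM libraries with and without WBRT, against 313 and 101 CPM in the microglia libraries with and without WBRT. Both BMDM libraries also held wells that grouped with microglia-like cells.

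The ligands together made up 0.237% of transcripts in BMDM with WBRT and 0.306% in BMDM without WBRT, 0.436% in microglia with WBRT and 0.701% in microglia without WBRT. The summed share was thus lower with WBRT in both sorts and lower in BMDM than in microglia at both conditions. Most wells held at least 1 ligand transcript. Wells with none numbered 5 of 262 in BMDM with WBRT, 5 of 234 in BMDM without WBRT, 12 of 151 in microglia with WBRT and 2 of 157 in microglia without WBRT. The median well held transcripts of 4, 3, 2 and 5 different ligands in the same order, at different depths.

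**Figure D1:**
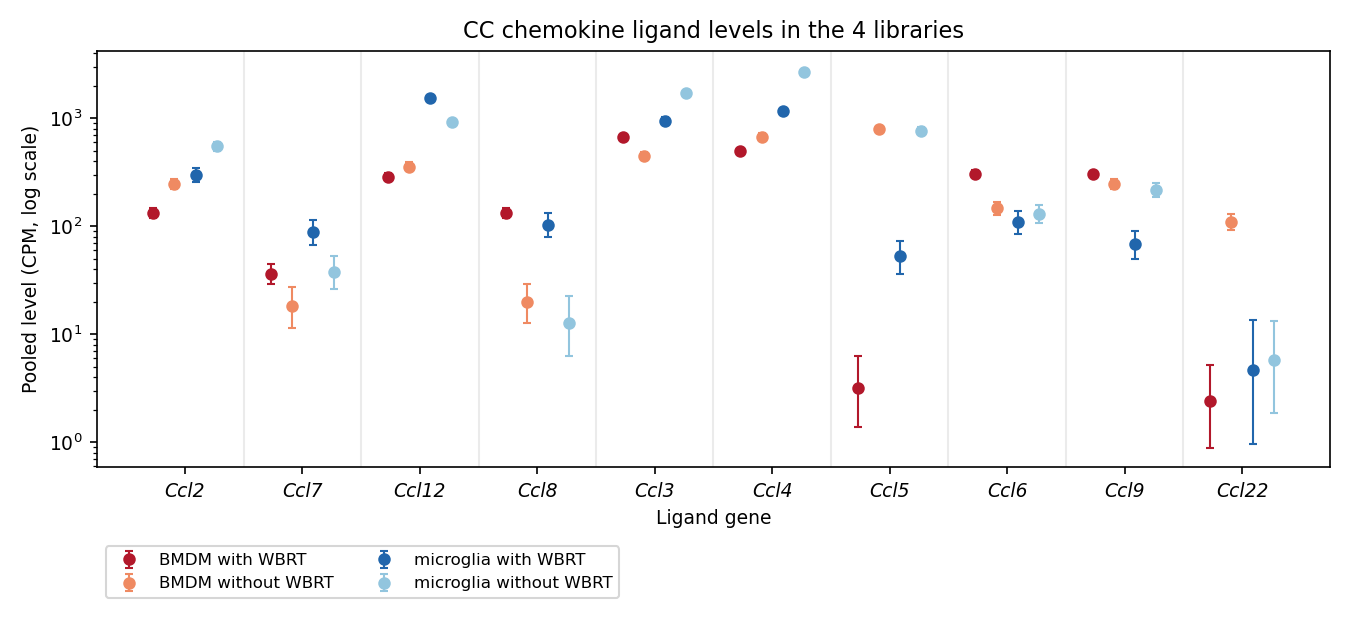
Pooled level of each ligand (CPM, log scale) in BMDM with WBRT, BMDM without WBRT, microglia with WBRT and microglia without WBRT, with exact Poisson 95% intervals that cover counting error only. Ccl5 and Ccl22 fall furthest in BMDM with WBRT, at 3.18 and 2.39 CPM, and Ccl8 is higher in both irradiated libraries, at 132 and 103 CPM.

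Ccl2, the main attractant of Ccr2-bearing monocytes, had 132 CPM (118 to 147) in BMDM with WBRT and 246 CPM (220 to 275) in BMDM without WBRT. It had 297 CPM (257 to 342) in microglia with WBRT and 547 CPM (499 to 598) in microglia without WBRT. The ranges in brackets, here and below, are exact 95% intervals for counting error only. The highest library was thus the unirradiated microglia, and the intervals of BMDM without WBRT and microglia with WBRT overlap. The irradiated level was 0.536 of the unirradiated one in BMDM and 0.542 in microglia, both short of a 2-fold difference. A single well held 30.9% of Ccl2 in microglia with WBRT, and without the top well of each library the microglia log2 ratio was -1.28, against -0.87 with it. Ccl2 was seen in 26.7% of wells of BMDM with WBRT, 39.7% of BMDM without WBRT, 29.8% of microglia with WBRT and 70.7% of microglia without WBRT, and after every well was thinned to 1000 transcript identifiers in 8.40%, 17.9%, 16.6% and 33.1% of wells.

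Ccl7, also a Ccr2 ligand, was rare. It had 36.3 CPM (91 counts) in BMDM with WBRT and 18.2 CPM (23 counts) in BMDM without WBRT, 87.9 CPM (57 counts) in microglia with WBRT and 37.7 CPM (33 counts) in microglia without WBRT. Its ratio with over without WBRT was 1.995-fold (1.25 to 3.30) in BMDM and 2.33-fold (1.49 to 3.69) in microglia. A single well held 35.2%, 39.2%, 40.4% and 24.3% of its counts in the 4 libraries in that order. Without the top well of each library, the microglia log2 ratio was 0.79, against 1.12 with it, and no longer reached 2-fold.

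Ccl12, a mouse chemokine that also acts through Ccr2, had 287 CPM (266 to 308) in BMDM with WBRT and 354 CPM (323 to 389) in BMDM without WBRT. It had 1540 CPM (1445 to 1638) in microglia with WBRT and 914 CPM (851 to 979) in microglia without WBRT. It was the only one of the 10 with its top level in irradiated microglia, apart from the rare Ccl7, and its share of wells after thinning was the same in both microglia libraries, 46.4% with WBRT and 46.5% without WBRT. The BMDM level was 0.186 of the microglia level with WBRT (0.169 to 0.205) and 0.388 without WBRT (0.345 to 0.436). Of the Ccl12 counts of BMDM with WBRT, 44.6% lay in 21 microglia-like wells. Without wells of another class than the sort, the log2 ratio of BMDM over microglia was -3.35 with WBRT, against -2.41 over all wells, and -1.79 without WBRT, against -1.35.

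Ccl8, the remaining gene of this run, had 132 CPM (118 to 147) in BMDM with WBRT, against 19.8 CPM (12.8 to 29.2) in BMDM without WBRT. It had 103 CPM (80.0 to 131) in microglia with WBRT, against 12.6 CPM (6.28 to 22.5) in microglia without WBRT. Both irradiated libraries were above both unirradiated ones with no overlap of intervals, while BMDM and microglia of the same condition overlapped. The folds were 6.69 (4.45 to 10.5) in BMDM and 8.21 (4.31 to 17.2) in microglia. The share of wells with Ccl8 was 21.4% in BMDM with WBRT, against 4.27% without WBRT, and 17.9% in microglia with WBRT, against 3.18% without WBRT. After thinning the shares were 7.25%, 1.71%, 9.27% and 1.91% in the same order. Its 4 top wells held at least 50% of its counts in BMDM with WBRT, and 6 wells did in microglia with WBRT.

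Ccl3 (MIP-1 alpha) and Ccl4 (MIP-1 beta) are chemokines made early by activated macrophages and microglia. Ccl3 had 674 CPM (642 to 707) in BMDM with WBRT and 448 CPM (412 to 486) in BMDM without WBRT, 947 CPM (874 to 1025) in microglia with WBRT and 1691 CPM (1606 to 1779) in microglia without WBRT. Ccl4 had 492 CPM (465 to 520) in BMDM with WBRT and 675 CPM (630 to 721) in BMDM without WBRT, 1156 CPM (1074 to 1241) in microglia with WBRT and 2696 CPM (2588 to 2807) in microglia without WBRT. The top level of both was in unirradiated microglia, and the 4 libraries did not overlap for either gene. In microglia the ratio with over without WBRT was 0.560 for Ccl3 and 0.429 for Ccl4, and only that of Ccl4 passed 2-fold. The log2 ratio of Ccl3 was -0.83, but -1.36 with each well weighted alike and -1.32 after thinning, both past 2-fold, and -0.28 without the Malat1-poor clusters. Ccl4 was seen in 56.1% of wells of BMDM with WBRT and 59.8% of BMDM without WBRT, 40.4% of microglia with WBRT and 89.2% of microglia without WBRT. After thinning these shares were 21.4%, 28.2%, 27.8% and 66.9%.

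The balance of the pair differed between libraries. Reads from the overlap of their RefSeq models cannot be assigned to either gene with certainty, and the part of this in the balance was not tested. There were 0.731 counts of Ccl4 per count of Ccl3 (0.678 to 0.787) in BMDM with WBRT, against 1.51 (1.35 to 1.68) in BMDM without WBRT. In microglia the ratio was 1.22 (1.09 to 1.36) with WBRT and 1.59 (1.49 to 1.70) without WBRT. BMDM with WBRT was thus the single library with fewer counts of Ccl4 than of Ccl3. Among its clusters, described below, the border-associated-macrophage-like wells had the ratio 0.557 and the Adamts1-led microglia-like wells 1.16.

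Ccl5 (RANTES), a ligand of Ccr1 that T cells, NK cells, dendritic cells and macrophages make, showed the largest difference with WBRT of the 10. It had 3.18 CPM (8 counts) in BMDM with WBRT, against 800 CPM (1013 counts) in BMDM without WBRT. It had 52.4 CPM (34 counts) in microglia with WBRT, against 763 CPM (668 counts) in microglia without WBRT. The level was 251-fold lower with WBRT in BMDM (127 to 584) and 14.6-fold lower in microglia (10.3 to 21.2), and the 2 unirradiated libraries overlapped. Ccl5 was seen in 2.67% of wells with WBRT, against 50.9% without WBRT, in BMDM, and in 8.61%, against 68.8%, in microglia. After thinning the shares were 0.382%, against 29.1%, in BMDM and 2.65%, against 37.6%, in microglia.

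Other cell types known for Ccl5 had the following values. The summed level of 7 NK cell markers was 2.39 CPM in BMDM with WBRT and 85.4 CPM in BMDM without WBRT. It was 0 in microglia with WBRT and 45.8 CPM in microglia without WBRT. These sums rest on few wells. In BMDM without WBRT 22 of 234 wells held 1 or more of the 7 markers, and in microglia without WBRT 7 of 157. Wells with 2 or more made up 1.28% of BMDM without WBRT and 0.637% of microglia without WBRT. In wells with no transcript of these markers, Ccl5 had 3.24 CPM in BMDM with WBRT, 767 CPM in BMDM without WBRT, 52.4 CPM in microglia with WBRT and 765 CPM in microglia without WBRT, so it was at about the pooled level. Of 6 T cell markers, 2 were found, and Cd3e, Cd3g, Cd2 and Trbc2 were not among the genes listed in any library. The summed level of the 2 was 2.39, 15.8, 6.16 and 5.72 CPM in the same order of libraries. Of 8 dendritic cell markers the summed level was 208 CPM in BMDM with WBRT and 1686 CPM in BMDM without WBRT. It was 313 CPM in microglia with WBRT and 277 CPM in microglia without WBRT, of which Fscn1 alone gave 308 and 263 CPM. Wells with 2 or more of the 8 markers made up 13.4% of BMDM with WBRT and 55.1% of BMDM without WBRT. They made up 0.662% of microglia with WBRT and 1.91% of microglia without WBRT. In BMDM without WBRT these were 129 wells, which held 81.7% of the library's Ccl5. In the wells with fewer of the 8 markers, Ccl5 had 391 CPM in BMDM without WBRT and 2.37 CPM in BMDM with WBRT. The BMDM ratio of Ccl5 without dendritic-cell-like clusters is given below.

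Ccl6 and Ccl9, ligands of Ccr1 that myeloid cells make, had their top levels in BMDM with WBRT. Ccl6 had 306 CPM (284 to 328) in BMDM with WBRT and 146 CPM (126 to 169) in BMDM without WBRT, 109 CPM (85.4 to 138) in microglia with WBRT and 129 CPM (106 to 155) in microglia without WBRT. The last 3 overlap, and Ccl6 was 2.09-fold (1.78 to 2.47) higher with WBRT in BMDM. Ccl9 had 302 CPM (281 to 324) in BMDM with WBRT and 247 CPM (220 to 275) in BMDM without WBRT, 67.8 CPM (49.3 to 91.0) in microglia with WBRT and 217 CPM (187 to 250) in microglia without WBRT. Irradiated microglia were thus below the other 3 libraries, 3.21-fold (2.30 to 4.56) under unirradiated microglia. Ccl6 was seen in 65.6% and Ccl9 in 65.3% of wells of BMDM with WBRT, against 31.6% and 46.2% in BMDM without WBRT, and after thinning both were in 24.8% of wells with WBRT, against 13.7% and 17.5% without WBRT.

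Ccl22, a Ccr4 ligand known from dendritic cells and some macrophages, was above 20 CPM in 1 library. It had 2.39 CPM (6 counts) in BMDM with WBRT and 109 CPM (139 counts) in BMDM without WBRT, 4.62 CPM (3 counts) in microglia with WBRT and 5.72 CPM (5 counts) in microglia without WBRT. Its counts in BMDM without WBRT came from 18 of 234 wells, and 1 well held 45.1% of them. Without the top well of each library the log2 ratio with over without WBRT in BMDM was -3.40, against -3.95 with it.

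The ligands were held by few wells. The count was made of the fewest wells that hold 50% of a gene's counts, beside the same over all genes of at least 100 CPM. In BMDM with WBRT, 50% of the counts lay in 8 wells for Ccl2, 9 for Ccl12, 11 for Ccl4, 19 for Ccl3, 28 for Ccl6 and 31 for Ccl9, against a median of 42 wells over 1570 genes. In BMDM without WBRT the range over ligands of at least 100 CPM was from 2 wells for Ccl22 to 17 for Ccl9, against a median of 26. In microglia with WBRT, 4 wells held 50% of Ccl2, 5 wells 50% of Ccl4 and 7 wells 50% of Ccl3, against a median of 13. In microglia without WBRT, the same took 18 wells for Ccl2, 20 for Ccl4, 19 for Ccl3 and 21 for Ccl12, against a median of 18, so these 4 were spread over wells about as widely as other genes. In BMDM with WBRT, 1.40% of the genes were held by as few wells as Ccl4, against 2.13% in BMDM without WBRT, and the shares for microglia were 4.23% with WBRT and 66.5% without WBRT. Depth differs between wells, and its part in these values was not tested.

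**Figure D2:**
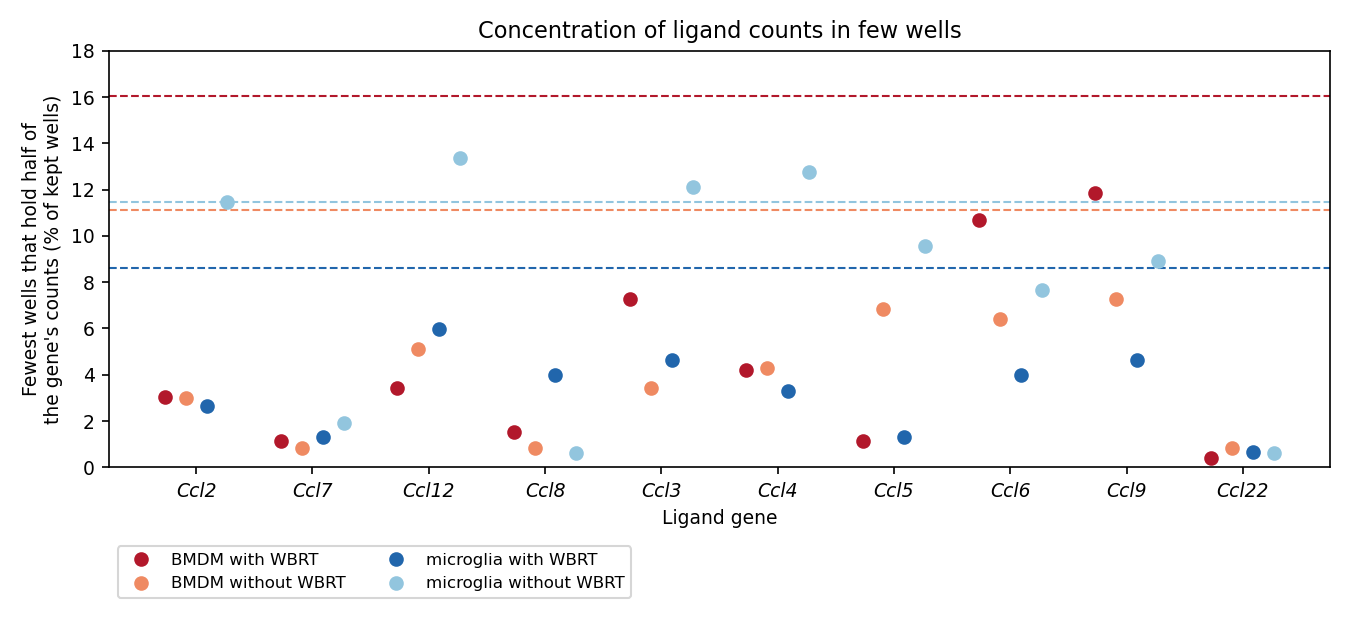
Fewest wells that hold 50% of each ligand's counts, as a percentage of the kept wells, in the 4 libraries; dashed lines give the median over all genes of at least 100 CPM in the library of that colour. Ligands under 100 CPM are drawn too, and their few counts do not compare with the lines. Ccl2, Ccl3, Ccl4 and Ccl12 lie at or above the line of unirradiated microglia and below their own library's line in the other 3.

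To see which wells held the ligands, the 804 wells were clustered without CC chemokine ligand genes, which gave 10 clusters. Only clusters with at least 15 wells in a library are described, and a cluster mostly of 1 plate may reflect that plate. The Clec4e- and Tgfbi-led wells are monocyte-like, the Pf4- and Cd93-led wells border-associated-macrophage-like, and 3 clusters led by Cd209a, by Xcr1 and by Ccr7 dendritic-cell-like. The Pf4-led cluster was enriched in 4 of 7 border-associated macrophage markers, and also in 3 of 6 blood-derived macrophage markers. The Cd209a-led cluster was enriched in 3 of 8 dendritic cell markers, and also in 3 of 6 blood-derived macrophage markers. Microglia-like wells formed 3 clusters, led by Cst7 and Cxcl13, by Adamts1, Hspa1a and Tnf, which are stress and immune response genes, and by C4b and Rrm2. Clusters led by Slc40a1 and Igf1 and by Mid1 stayed unnamed. The Cst7- and Slc40a1-led clusters were poor in Malat1. The Adamts1-led cluster had 1 well of microglia without WBRT, and the C4b-led cluster had 3 wells of microglia with WBRT. The Slc40a1-led cluster had 6 wells of BMDM without WBRT and 6 of microglia without WBRT.

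In microglia with WBRT the Adamts1-led cluster had 33 wells, 21.9% of the library's wells and 45.3% of its transcripts, and held 67.9% of its ligand counts. It held 87.7% of the library's Ccl4, 82.9% of Ccl3, 55.7% of Ccl12 and 54.6% of Ccl2. Ccl4 had 2237 CPM there, against 213 CPM in the 65 Cst7-led wells of the same library. Ccl12 was less confined, with 1893 CPM in the Adamts1-led wells and 1297 CPM in the Cst7-led wells. In BMDM with WBRT, 21 Adamts1-led wells had 2050 CPM of Ccl4, 1771 CPM of Ccl3 and 1228 CPM of Ccl12, and held 26.5% of ligand counts with 10.4% of transcripts. In microglia without WBRT the 91 C4b-led wells had 3178 CPM of Ccl4, seen in all 91, and 1999 CPM of Ccl3, seen in 95.6% of wells, and held 90.4% of ligand counts with 80.1% of transcripts.

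The Cst7-led microglia-like cluster had enough wells in both microglia libraries for a comparison, 65 with WBRT and 56 without WBRT, and 42.5% of all genes differed at least 2-fold there. Ccl5 had 21.3 CPM with WBRT, against 853 CPM without WBRT. Ccl4 had 213 CPM with WBRT and 815 CPM without WBRT, Ccl3 had 139 and 426 CPM with and without WBRT, and Ccl2 had 90.7 and 269 CPM with and without WBRT. Ccl12 had 1297 CPM with WBRT and 973 CPM without WBRT. The direction of Ccl2, Ccl3, Ccl4, Ccl5 and Ccl12 was that of the whole libraries, while Ccl7 was 32.0 CPM with WBRT and 37.4 CPM without WBRT.

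With WBRT, Ccl8 was highest in the Slc40a1-led wells. The 20 such wells of BMDM with WBRT had 2073 CPM (1772 to 2415) and held 50.2% of the library's Ccl8 with 3.20% of its transcripts. The 128 border-associated-macrophage-like wells of that library had 83.8 CPM and held 38.6%. The 45 Slc40a1-led wells of microglia with WBRT had 411 CPM (305 to 541) and held 74.6%. Ccl8 was seen in 13 of these 20 wells of BMDM with WBRT and in 19 of these 45 wells of microglia with WBRT. Leaving out the Cst7- and Slc40a1-led clusters, the log2 ratio of Ccl8 with over without WBRT was 1.79 in BMDM, against 2.47 over all wells, and 0.55 in microglia, against 2.62 over all wells, where it no longer passed 2-fold. Ccl6 was also high in the Slc40a1-led wells, at 647 CPM in BMDM with WBRT and 320 CPM in microglia with WBRT.

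Ccl5 and Ccl22 were highest in the Ccr7-led dendritic-cell-like cluster, whose 36 wells were all of BMDM without WBRT. Ccl5 had 4872 CPM (4488 to 5278) there, was seen in 94.4% of these wells, and 58.9% of the library's Ccl5 lay in them. Ccl22 had 969 CPM (806 to 1164) there, was seen in 36.1% of wells, and 85.5% of the library's counts lay in them. Ccl6 was at 0 in the same 36 wells, which allows up to 30.1 CPM at 95%. Ccl5 was not confined to these wells: it had 665 CPM in monocyte-like wells of BMDM without WBRT, against 6.10 CPM in those of BMDM with WBRT, and 315 CPM in Cd209a-led wells without WBRT, against 5.00 CPM with WBRT. Without all dendritic-cell-like clusters, the BMDM log2 ratio with over without WBRT was -5.90 for Ccl5, against -6.62 over all wells, and -2.29 for Ccl22, against -3.95 over all wells.

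Ccl9 and Ccl6 were found in most BMDM clusters, at levels that differed widely. In BMDM with WBRT the Adamts1-led wells had 49.7 CPM of Ccl9 and 57.3 CPM of Ccl6. In BMDM without WBRT the Xcr1-led wells had 55.4 CPM of Ccl9 and 43.5 CPM of Ccl6, and the Ccr7-led wells had no count of Ccl6. Ccl9 had 543 CPM in monocyte-like wells with WBRT and 496 CPM in those without WBRT, and 575 CPM in Cd209a-led wells with WBRT and 563 CPM in those without WBRT. Ccl6 had 409 CPM in monocyte-like wells with WBRT, against 200 CPM without WBRT. The border-associated-macrophage-like cluster, with 128 wells of BMDM with WBRT and 1 of BMDM without WBRT, held 65.2% of Ccl6 and 56.6% of Ccl9 of the irradiated library with 61.0% of its transcripts.

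**Figure D3:**
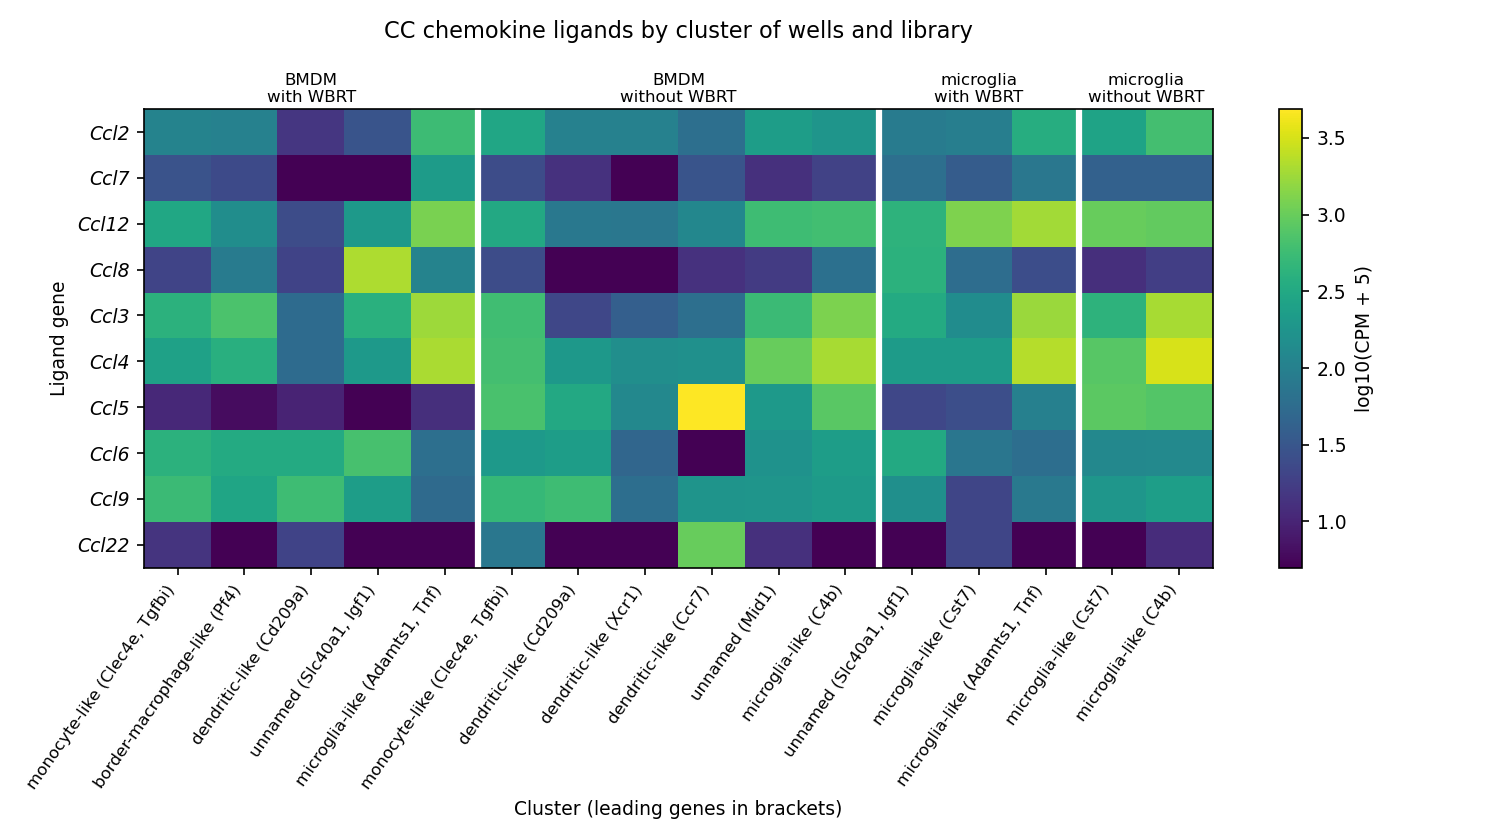
Pooled level of each ligand, as log10(CPM + 5), in each cluster with at least 15 wells in a library, from BMDM with WBRT to microglia without WBRT. Ccl5 and Ccl22 are brightest in the Ccr7-led wells of unirradiated BMDM, at 4872 and 969 CPM, and Ccl8 in the Slc40a1-led wells of irradiated BMDM, at 2073 CPM.

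For the 4 comparisons, a gene counted as different when its log2 ratio of CPM + 5 was at least 1 or at most -1, among genes of at least 20 CPM in 1 of the pair. On this scale differences of low genes are understated. With over without WBRT in BMDM, 2 of 10 ligands were higher (Ccl6 and Ccl8) and 2 lower (Ccl5 and Ccl22), where 11.3% of 6551 genes differed in either direction, 5.16% higher and 6.14% lower. The median log2 ratio of the ligands was -0.01, against 0.08 over all genes tested, and Ccl6, at 1.04, lay near the limit. Without the dendritic-cell-like clusters Ccl6 was at 0.69, short of 2-fold, and Ccl2 at -1.22, past it.

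With over without WBRT in microglia, 2 of 9 ligands were higher (Ccl7 and Ccl8) and 3 lower (Ccl4, Ccl5 and Ccl9), where 16.9% of 6723 genes differed, 9.36% higher and 7.56% lower. Ccl22 was under 20 CPM in both libraries. The median log2 ratio of the ligands was -0.83, against 0.06 over all genes tested. Without the Malat1-poor clusters the log2 ratio of Ccl4 was -0.62, against -1.22 over all wells, and that of Ccl12 was 1.17, against 0.75 over all wells, so that Ccl4 left and Ccl12 joined the genes past 2-fold. Without those clusters Ccl8 also left, at 0.55, and Ccl6 joined, at -1.02 against -0.23. Scaled to spike-in counts, the median log2 ratio of all genes was -1.49 in this comparison, and Ccl12, at -0.92, and Ccl7, at -0.41, lay below 0 but above that median.

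BMDM over microglia with WBRT, 2 of 9 ligands were higher (Ccl6 and Ccl9) and 5 lower (Ccl2, Ccl4, Ccl5, Ccl7 and Ccl12), where 15.4% of 6774 genes differed, 7.91% higher and 7.45% lower. The median log2 ratio was -1.14, against 0.07 over all genes tested. The count was 4 of 9 when each well was weighted alike or thinned to 1000 identifiers, with Ccl6, Ccl9, Ccl5 and Ccl12 past 2-fold and Ccl4 at -0.35 in both. Without the top well of each library Ccl2 was at -0.76, against -1.14 with it. In the Adamts1-led wells of the 2 libraries, the BMDM level of Ccl3 was 1771 CPM and the microglia level 1731 CPM, and those of Ccl4 were 2050 CPM for BMDM and 2237 CPM for microglia, with intervals that overlap.

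BMDM over microglia without WBRT, 1 of 9 ligands was higher (Ccl22) and 4 lower (Ccl2, Ccl3, Ccl4 and Ccl12), where 17.2% of 6591 genes differed, 10.3% higher and 6.81% lower. The median log2 ratio was -0.88, against 0.02 over all genes tested. Ccl4 was 3.69 to 4.33 times lower and Ccl3 3.42 to 4.17 times lower in BMDM, as 95% intervals. Ccl5, Ccl6 and Ccl9 differed by 1.05-, 1.13- and 1.14-fold, with intervals of the ratio that include 1. Without the dendritic-cell-like clusters, Ccl2 at -0.66 and Ccl12 at -0.79 no longer passed 2-fold. The WBRT and the sort comparisons share libraries and are not independent of each other.

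**Figure D4:**
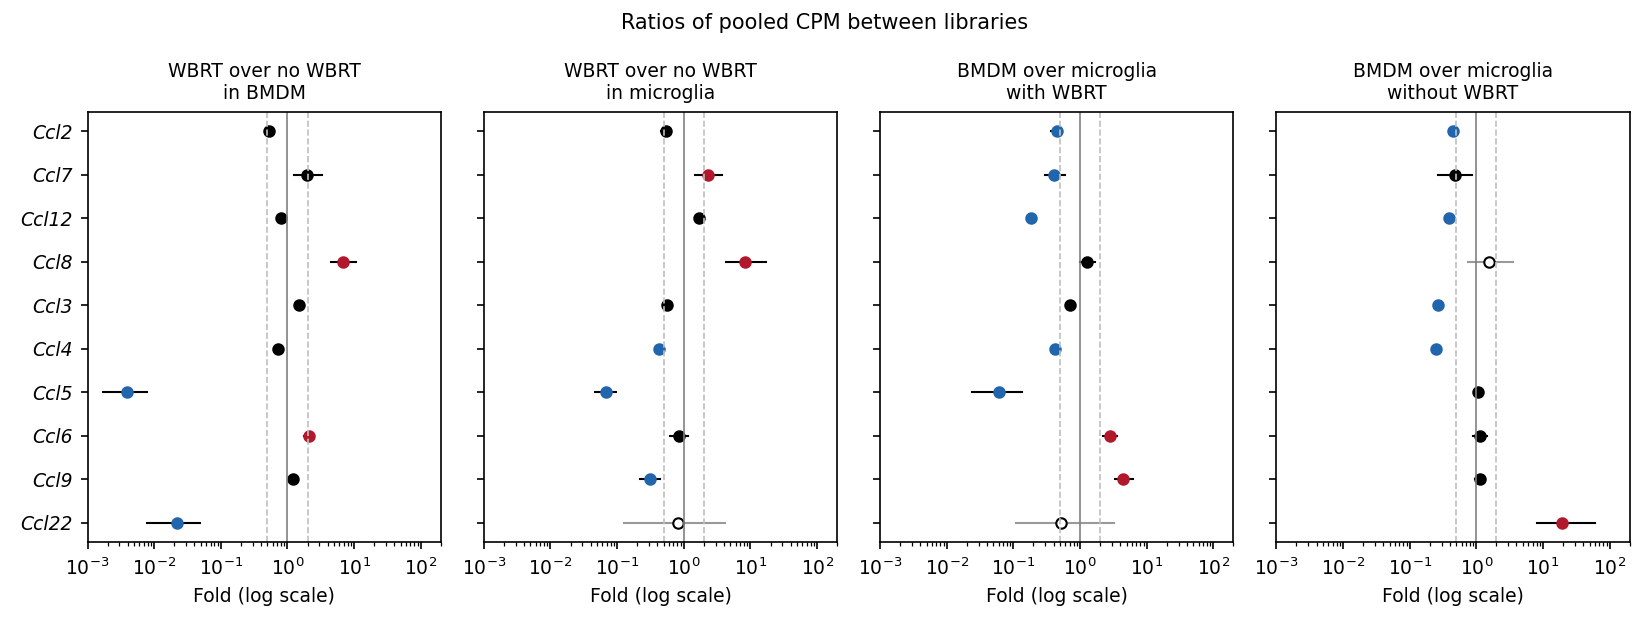
Fold between libraries for each ligand (log scale), with exact 95% intervals for counting error. Red points are at least 2-fold higher and blue points at least 2-fold lower on the CPM + 5 scale, black points are neither, open points are under 20 CPM in both libraries, and dashed lines mark 2-fold. Ccl5 lies far to the left with WBRT in both sorts and Ccl8 to the right.

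Ligands that varied together among wells were described by the Pearson correlation of log2(counts per 10000 + 1), over 262, 234, 151 and 157 wells of 1 plate each, which share depth and cell type. Ccl3 and Ccl4 were each other's most similar gene in all 4 libraries, with r of 0.59 in BMDM with WBRT, 0.56 in BMDM without WBRT, 0.56 in microglia with WBRT and 0.59 in microglia without WBRT. Reads from the overlap of the RefSeq models of this pair cannot be assigned to either gene with certainty, and the part of this in r was not tested. The next genes by similarity were not shared by all libraries. They were Nfkbiz (0.46) and Rhob (0.42) for Ccl3 and Rhob (0.42) and Tnf (0.41) for Ccl4 in BMDM with WBRT. In BMDM without WBRT they included Apoe (0.49) for Ccl3 and Itgam (0.40) for Ccl4. They were Rgs1 (0.49) and Nr4a1 (0.44) for Ccl3 and Cd14 (0.51) and Cd83 (0.49) for Ccl4 in microglia with WBRT. In microglia without WBRT they were Ccnl1 (0.58) and Ier2 (0.54) for Ccl3, and Ier5 (0.55) and Atf3 (0.51), a pair of early response genes, for Ccl4.

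The other ligands had other partners. Ccl2 went with Xist (0.42) and Nfkbiz (0.41) in microglia with WBRT and with Clk1 (0.47) and Ccl3 (0.43) in microglia without WBRT. Ccl5 in BMDM without WBRT went with Ccr7 (0.65), the receptor of migrating dendritic cells, Fscn1 (0.63) and Samsn1 (0.62). Ccl8 in BMDM with WBRT went with the iron exporter Slc40a1 (0.54), the lipase Lpl (0.48) and the folate receptor Folr2 (0.46). Ccl6 went with Ccl9 in BMDM with WBRT (0.43), and less so in BMDM without WBRT (0.32). In microglia the r of this pair was 0.03 with WBRT, where 15.2% of wells held Ccl9, and 0.01 without WBRT. Ccl12 went with Gpr34 (0.41) and Cd81 (0.41) in BMDM with WBRT and with C1qb (0.45), Maf (0.45) and Egr1 (0.45) in BMDM without WBRT, and no gene reached 0.4 with it in either microglia library.

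Of CC chemokine receptors, Ccr2 had 969 CPM in BMDM with WBRT and 389 CPM in BMDM without WBRT, against 6.16 CPM in microglia with WBRT and 0 in microglia without WBRT. Ccr1 had 289 CPM in BMDM with WBRT and 135 CPM in BMDM without WBRT, 176 CPM in microglia with WBRT and 248 CPM in microglia without WBRT. Ccr7, which binds none of these 10 ligands, had 1.19 CPM in BMDM with WBRT, against 495 CPM in BMDM without WBRT. Of 15 receptor genes listed, 9 were found. With over without WBRT, 2 of the 5 that reached 20 CPM were higher and 1 lower in BMDM. In microglia 0 of 4 were higher and 1, the atypical receptor Ccrl2, was lower. Of all genes, 5.16% were higher and 6.14% lower in BMDM, and 9.36% were higher and 7.56% lower in microglia. Of 10 other CC ligands listed, 4 were found (Ccl17, Ccl24, Ccl25 and Ccl28) and none reached 20 CPM in any library.

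Lists of genes that respond to the signals known to act on these ligands were counted in the same way. Of 15 interferon response genes, 9 were lower and 0 higher with WBRT in BMDM (median log2 ratio -1.55), and 12 were lower and 0 higher in microglia, with a median of -1.85. Of all genes, 6.14% were lower in BMDM and 7.56% in microglia. Irf7 had 146 CPM in BMDM with WBRT, against 437 CPM without WBRT, and 43.1 CPM in microglia with WBRT, against 334 CPM without WBRT. Of NF-kB response genes, 3 of 15 were higher and 1 lower with WBRT in BMDM, and 2 of 14 were higher and 0 lower in microglia, where 5.16% of all genes were higher in BMDM and 9.36% in microglia. The 2 in microglia were Tnf, at 1033 CPM with WBRT, against 347 CPM without WBRT, and Cxcl2, at 161 CPM, against 42.3 CPM. The part of either list in the ligand levels was not tested.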

How the data were processed

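Transcripts were counted in single sorted cells of 4 plates, 1 per group, grouped by sample titles. The values are estimated counts (expected counts) per gene and well, deposited by the authors without normalization; that they are corrected for coinciding identifiers was read from the values, of which 100% matched a correction for 4096 identifiers within 0.0051. The build was GRCm38, per the submitters' processing notes; the aligner, counter and annotation were not given in the sources used here. Protocols in the labels name the sorting and a plate-based method by citation.

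CPM was computed over all counts except ERCC spike-ins. Counts were rounded only for intervals and TMM factors (edgeR 4.0.16, R 4.3.3). Intervals are exact Poisson, exact conditional for folds and Clopper-Pearson for shares, at 95%, and cover counting error only; transcripts of 1 well are not independent. The share of wells was also taken after thinning to 1000 identifiers, which left out 0 wells. Clustering used scanpy 1.11.5 (Leiden at resolution 1 on 15 neighbours, 30 components and 2000 variable genes) without CC ligand, cell cycle, mitochondrial and ribosomal protein genes, and a cluster was named from at least 3 enriched markers. Doublets were not called. Sorting was meant to put 1 cell in each well, which was not checked. Of the 804 wells, 0 had counts identical to another well.

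The members, marker lists and pathway lists were chosen with earlier results of these data known. Named besides the members are up to 3 list genes per comparison with the largest ratio and up to 5 leading genes of a cluster. Genes with r of at least 0.4 in a library are named too, where each gene of the pair was held by at least 20% of its wells. The computation was run on simulated Poisson counts for 15690 genes. The intervals covered the true fold in 94.9% to 95.8% of those above a set CPM limit. The intervals assume Poisson counts too, so this checks the arithmetic only. It does not test genes of few counts or genes held by few wells. The limit on Malat1 and the alternatives by cluster were added after seeing the data. Promoter sequences are RefSeq's. Values of a few genes that the naming rule takes are not reported here.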

Additional observations from a re-analysis of the deposited data

Results flagged for a closer look

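Ccl3, Ccl9 and Ccl12 had opposite directions with WBRT in the 2 sorts, with counting intervals of both folds that exclude 1. None of these differences was tested, since each group is 1 library. Ccl3 had a log2 ratio with over without WBRT of 0.58 in BMDM and -0.83 in microglia, but the BMDM value was 0.06 without the dendritic-cell-like clusters and -0.50 within the monocyte-like cluster. Ccl9 had 0.29 in BMDM and -1.61 in microglia, and the BMDM value was 0.07 without the dendritic-cell-like clusters and 0.04 when scaled to spike-in counts. Ccl12 had -0.30 in BMDM and 0.75 in microglia, but the BMDM value was 0.21 with each well weighted alike and 0.46 after thinning, and the microglia value was -0.92 when scaled to spike-in counts, where the median of all genes was -1.49. The log2 ratios of Ccl6 also had opposite signs, 1.04 in BMDM and -0.23 in microglia, but the microglia interval includes 1.

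Wells that were left out, mostly for having under 1000 counts, also held ligand transcripts. Their summed counts were 83 in 122 wells of BMDM with WBRT, 107 in 150 wells of BMDM without WBRT, 227 in 233 wells of microglia with WBRT and 290 in 227 wells of microglia without WBRT. This was 1828, 3799, 2298 and 5046 CPM of the transcripts in those wells, in the same order.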

How the results depend on the processing

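Of 591 alternative log2 ratios of the ligands, 23 had another sign than the reported value, 8 of them for ligands past 2-fold. The other 15 were of ligands short of 2-fold. The number of ligands past 2-fold moved by over 1.5 times in the comparison of BMDM over microglia with WBRT alone, from 7 ligands to 4 with each well weighted alike, 4 after thinning and 3 within the Adamts1-led cluster; the cause was not tested. In that comparison Ccl2, Ccl4 and Ccl7 reversed to 0.38, 0.32 and 0.25 when scaled to spike-in counts, Ccl3 was at 1.06 there, against -0.49, and Ccl2, Ccl7 and Ccl9 reversed to 0.61, 1.498 and -0.54 within the Adamts1-led cluster. In microglia, Ccl7 with over without WBRT reversed to -0.41 when scaled to spike-in counts and to -0.20 within the Cst7-led cluster. After scaling to spike-in counts the median of all genes was -0.17 with over without WBRT in BMDM, -1.49 in microglia, 1.46 in BMDM over microglia with WBRT and 0.16 without WBRT, as microglia with WBRT held more spike-in counts per transcript. Ccl5 was lower with WBRT in both sorts under every alternative run, from -7.58 to -5.00 in BMDM and from -5.25 to -3.12 in microglia. Ccl8 was higher with WBRT in both sorts under every alternative in which it reached 20 CPM. In microglia it was at 0.99 with at least 3000 counts per well and at 0.55 without the Malat1-poor clusters. Within the monocyte-like cluster of BMDM, Ccl8 stayed under 20 CPM and was not higher. It had 15.2 CPM with WBRT and 19.98 CPM without WBRT there, from 5 counts each. No paired analysis was possible because each group has 1 sample and the labels give no replicate numbers. Depth limits Ccl22 and Ccl8 in the libraries where they had few counts.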
